A study of Rattus norvegicus with 32 samples.

Results

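Fibroblast growth factors (FGFs) are secreted or intracellular proteins, and most of the secreted ones bind tyrosine kinase receptors (Fgfr1 to Fgfr4) together with heparan sulphate or klotho co-receptors. Receptor activation recruits docking proteins and the RAS-ERK relay, which in turn induces feedback inhibitors such as the sproutys and transcription factors of the ETV group. In the heart, FGFs act on cardiomyocytes, fibroblasts and vessels, and Fgf2 is known for its roles in hypertrophy, angiogenesis and protection of ischaemic muscle.

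The genes described are the FGF ligands Fgf1, Fgf2, Fgf9, Fgf13, Fgf16 and Fgf21 and the receptors Fgfr1, Fgfr2, Fgfr3 and Fgfr4, 10 genes in all. They were found by gene name among the non-control probes of a 1-colour rat array and were covered by 15 of the 45598 different probes, each 60 bases long. RNA came from the left ventricle of adult male and female Wistar rats, collected 20 h after surgery. Each sex had 5 rats with sham surgery, 5 with CLP (cecal ligation and puncture, a model of abdominal sepsis) and 6 with CLP and landiolol, a β1-selective blocker with a short half-life that was infused after surgery (CLP plus landiolol). Rats without landiolol received saline, so that the sham groups shared fluid and surgery with the CLP groups but not landiolol, and no group had landiolol without CLP. All hearts had been perfused ex vivo before the tissue was frozen, as given by the methods of the study, and were chosen from rats examined in an earlier study.

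Unless stated otherwise, a value below is a log2 intensity after quantile normalisation of the 16 arrays of a sex, with 1 rat per array. A difference of 1 on the log2 scale is a doubling. The summed intensities of cell type markers are on a linear scale instead. Tests of a difference between the sexes used the arrays of both sexes normalised together. Intensities of different probes cannot be set against each other, so levels are compared between groups and never between genes. A probe was tested if, in 1 group or more, no fewer than 80% of arrays had it marked well above background by the scanner software, which held for 13 of the 15 probes in males and 12 in females, and for 9 of the 10 genes. Fgfr4, a receptor known mainly from liver and muscle repair, was not tested: its probe was well above background on 2 arrays of each male group and on 0 of the 16 female arrays. Differences were called with limma at a false discovery rate (FDR, Benjamini-Hochberg over all probes tested) of 1% against sham and 5% for CLP plus landiolol against CLP.

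The 3 ligands with the widest differences from sham in both sexes were Fgf2, Fgf9 and Fgf16, and the probes that measured them are shown because each value rests on how this 60-base stretch hybridised. Capitals mark the longest run of bases that the Fgf9 and Fgf16 probes, which measure related ligands, have in common.
Fgf2: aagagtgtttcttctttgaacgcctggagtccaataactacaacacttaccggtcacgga
Fgf9: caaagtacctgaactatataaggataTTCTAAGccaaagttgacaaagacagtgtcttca
Fgf16: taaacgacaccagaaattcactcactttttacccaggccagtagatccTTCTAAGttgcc
The shared run was 7 bases long, and over the 105 pairs of the 15 probes the longest run in common was 4 to 9 bases. In the coordinates of the files (build rn4) the Fgf2 probe lay at chr2:123946945-123947004, the Fgf9 probe at chr15:37155328-37155387 and the Fgf16 probe at chrX:93879974-93880033, all on the plus strand. Exons of the probes are not given in the files.

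The arrays of a sex correlated with each other at 0.961 to 0.988 in males and 0.963 to 0.987 in females (Pearson, 120 pairs each). Male and female arrays lay on different slides, so levels in the sexes cannot be told apart from the slide. The 7 ventricular cardiomyocyte markers were all tested, and none passed the FDR in any comparison. Of the neutrophil markers tested, S100a8 and S100a9 were called higher with CLP in males, and S100a8 in females, where S100a9 was at 1.95 (adjusted p = 0.0328). Of the macrophage markers, Adgre1 and Cd68 were called higher in each sex, at 2.79 and 0.86 in males and 2.79 and 0.72 in females. Mrc1 and Cd163 did not pass, and Csf1r differed by -0.07 and -0.01. Of all probes tested, 7.81% in males and 3.63% in females were called for CLP against sham. The summed normalised intensity of the 4 neutrophil markers was 28.7 to 44.1 in male sham, 127 to 784 in male CLP and 274 to 850 in male CLP plus landiolol, and 26.5 to 59.7, 164 to 426 and 172 to 1090 in the corresponding female groups. The neutrophil sums include Mmp8 and Csf3r, which were not tested. The filter asks for 1 group only, so a marker near background in sham can enter the test through the septic groups. Through which groups S100a8 and S100a9 met it is not given here. The sum of the 5 macrophage markers, all tested, was 2030 to 2890, 3960 to 6840 and 3660 to 6560 in males and 1930 to 2660, 3300 to 4470 and 4700 to 6100 in females, in the same order of groups. In whole tissue, a change in the share of a cell type and a change in RNA per cell cannot be told apart.

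With limma as set out above, Fgf2 was the only member called, and it was higher in septic hearts of both sexes. Some other settings, given below, also called Fgf16 or Fgf9. With its brighter probe, the 5 male sham arrays read 7.51, 7.08, 7.06, 6.97 and 6.99, and the 5 male CLP arrays read 8.89, 9.23, 9.63, 9.75 and 9.78. The lowest CLP value was above the highest sham value, so the groups did not overlap. The means were 7.12 ± 0.22 (SD, n = 5) and 9.46 ± 0.39 (SD, n = 5), a difference of 2.34 (SE 0.20) or 5.05-fold, with limma's adjusted p = 4.02e-06. This was rank 27 by p among the 25864 probes tested in males.

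In females, the sham arrays read 7.03, 7.28, 7.26, 7.14 and 7.38 and the CLP arrays 8.89, 8.53, 9.05, 8.66 and 9.55. Again every CLP array lay above every sham array. The means were 7.22 ± 0.14 (SD, n = 5) and 8.93 ± 0.40 (SD, n = 5), which differed by 1.72 (SE 0.21) or 3.28-fold, with limma's adjusted p = 0.000147 and rank 58 of 25394 probes. Of the 9 genes tested, 1 was called in each sex, while 7.81% of all probes tested were called in males and 3.63% in females.

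Under landiolol, Fgf2 was lower than in CLP in males. The 6 male CLP plus landiolol arrays read 7.95 at the lowest, 8.42 at the median and 8.87 at the highest, with a mean of 8.44 ± 0.34 (SD, n = 6). All 6 lay between the sham and the CLP arrays and overlapped with neither. Compared with CLP, the level fell by 1.02 on the log2 scale (SE 0.19, 0.494-fold, limma's adjusted p = 0.0159), where 1.56% of all probes were called. The call was lost without male CLP replicate 3 (adjusted p = 0.0507) or replicate 4 (adjusted p = 0.0615), with differences of -0.97 and -0.94, and when only the groups compared were fitted.

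In females, the 6 CLP plus landiolol arrays read 8.06 at the lowest, 8.51 at the median and 8.92 at the highest, with a mean of 8.49 ± 0.37 (SD, n = 6). These values overlapped with those of the female CLP group. The difference from CLP was -0.45 (SE 0.20), and limma's adjusted p was 0.498. None of the 9 genes was called there, beside 0.0945% of all probes, and SAM, significance analysis of microarrays, called 0 genes. Without adjustment, 1 of the 12 FGF probes tested had a limma p under 0.05, beside 2372 of all 25394 probes.

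Fgf2 with landiolol stayed above sham in both sexes. The difference from sham was 1.32 (SE 0.19, 2.49-fold, limma's adjusted p = 0.000498) in males and 1.27 (SE 0.20, 2.41-fold, limma's adjusted p = 0.000705) in females, without overlap in either. In this comparison 4.15% of all probes were called in males and 5.25% in females. All female sham arrays lay in the first row of their slides and all female CLP plus landiolol arrays in the second, and with the row as a term the female difference was 0.99 with an adjusted p of 0.342. The female difference between CLP and sham was 1.60 (adjusted p = 0.00184) with that term.

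**Figure D1:**
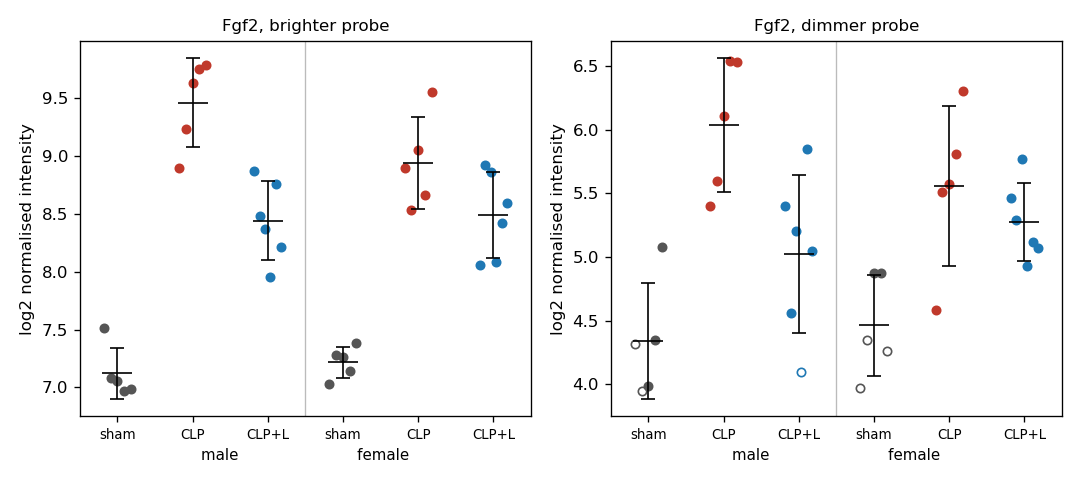
Log2 normalised intensity of both Fgf2 probes on each of the 32 arrays, by sex and treatment (CLP+L is CLP plus landiolol). Points are rats, filled where the probe was well above background and open where it was not, and bars are the mean ± SD. With the brighter probe every CLP array lies above every sham array of its sex, and the male CLP plus landiolol arrays (7.95 to 8.87) lie between the sham and the CLP arrays.

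Whether the sexes differed in these changes was tested directly. The rise of Fgf2 with CLP was smaller in females by 0.60 on the log2 scale (female minus male -0.60, SE 0.29), with an unadjusted p of 0.048 and an adjusted p of 1 in limma. For CLP plus landiolol against CLP, the female minus male difference was 0.56 (SE 0.28), with an unadjusted p of 0.054 and an adjusted p of 0.969. Neither passed the FDR of 5%, as 0% of the 26490 probes tested did in either interaction (995 and 1307 probes had an unadjusted p under 0.05).

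The change of Fgf2 was measured on each slide separately as well. CLP exceeded sham by 1.96 and 2.76 on the male slides and by 1.37 and 1.95 on the female slides. CLP plus landiolol minus CLP was -0.68 and -1.46 on the male slides and -0.15 and -0.63 on the female slides. Each of these slide values rests on 2 or 3 arrays per group.

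The second Fgf2 probe, at chr2:123947600-123947659, was dimmer, and only 3 of 5 male and 2 of 5 female sham arrays were well above background. In each sex it met the filter through the CLP and CLP plus landiolol groups alone, where it read higher than in sham. Its differences from sham are therefore not independent of the filter. This probe read 4.32, 3.95, 3.99, 4.35 and 5.08 in male sham and 5.40, 5.60, 6.11, 6.54 and 6.53 in male CLP. These groups did not overlap, and the difference was 1.70 (SE 0.32) with limma's adjusted p = 0.00206. In females it was 1.09 (SE 0.27) with an adjusted p of 0.0194, over the threshold of 1%. For CLP plus landiolol against CLP this probe gave -1.01 (adjusted p = 0.129) in males and -0.28 (adjusted p = 0.804) in females, so that the landiolol call rests on the brighter probe. Against sham the values were 0.69 (adjusted p = 0.181) and 0.81 (adjusted p = 0.0519). Both probes had the same sign in all 6 comparisons.

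The 3 genes that followed the pattern of Fgf2 most closely were taken from 12950 named genes, by the root mean square distance between their 4 log2 differences from sham (those of the CLP groups with and without landiolol, male and female). These were A2m, a broad protease inhibitor of the acute phase, at a distance of 0.13, Csf2rb, the common receptor subunit for GM-CSF and interleukin-3, at 0.15, and Tgif1, a homeobox repressor, at 0.17. A2m, for example, differed from sham by 2.15 in male CLP, 1.28 in male CLP plus landiolol, 1.54 in female CLP and 1.26 in female CLP plus landiolol.

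Fgf16 and Fgf9, related ligands that signal between the epicardium, endocardium and muscle of the developing heart, read lower after CLP but did not pass the FDR of 1%. Fgf16 read 4.44, 7.39, 6.15, 7.45 and 6.10 on the male sham arrays and 3.98, 4.90, 4.26, 4.07 and 4.59 on the male CLP arrays. A single sham array, replicate 1, fell within the CLP range. It was also the sham array on which the probe was not well above background. Its median signal before normalisation was 77.1, against 123, 138, 158 and 74.8 on the other male sham arrays, in the order above. Whether the signal of an array bears on these readings was not tested. The male difference was -1.95 (SE 0.55, limma's adjusted p = 0.0239).

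In females, Fgf16 read 6.48, 5.79, 5.56, 7.11 and 5.58 in sham and 3.26, 4.39, 5.14, 4.66 and 2.24 in CLP. No CLP array reached the lowest sham array. The difference was -2.17 (SE 0.63, limma's adjusted p = 0.0410). The CLP plus landiolol arrays read 2.79, 4.61 and 5.12 (lowest, median and highest) in males and 2.17, 3.86 and 4.92 in females. They differed from CLP by -0.12 (adjusted p = 0.928) and -0.29 (adjusted p = 0.936) and from sham by -2.07 (SE 0.52, adjusted p = 0.0200) and -2.46 (SE 0.60, adjusted p = 0.0143).

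The probe was close to background: 4 of 5 male and all 5 female sham arrays were well above it, against 2 of 5 male CLP, 3 of 5 female CLP, 4 of 6 male and 3 of 6 female CLP plus landiolol arrays. In each sex it therefore met the filter through the sham group alone, the group where it read highest. The size of the change depended on how background was removed, since normexp correction gave -0.82 in males and -0.70 in females for CLP against sham. With SAM, the test named in the methods of the study, Fgf16 was called at 1% against sham in all 4 comparisons and Fgf9 in 1, male CLP. In limma, Fgf16 was within an FDR of 5% in these 4 comparisons, but in females not with the row on the slide as a term, at -1.84 for CLP (adjusted p = 0.184) and -1.64 for CLP plus landiolol (adjusted p = 0.683). It passed 1% with normexp for female CLP plus landiolol (-0.76, adjusted p = 0.00349). Without male sham replicate 1 it passed 1% in males, at -2.42 for CLP (adjusted p = 0.00327) and -2.54 for CLP plus landiolol (adjusted p = 0.00272). That array held the lowest sham value, so leaving it out raised the sham mean. Leaving out any of the other male sham arrays took the probe out of the test, since it no longer met the filter.

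Fgf9 read 5.24, 6.41, 5.92, 6.25 and 5.66 in male sham and 3.61, 5.02, 4.87, 3.63 and 4.15 in male CLP, without overlap. In females it read 6.58, 5.94, 4.27, 5.93 and 5.52 in sham and 5.14, 4.20, 4.97, 3.53 and 2.14 in CLP, with overlap through sham replicate 3. The differences were -1.64 (SE 0.59, limma's adjusted p = 0.0717) and -1.65 (SE 0.60, adjusted p = 0.0996). With normexp correction these were -0.58 (adjusted p = 0.0178) and -0.52 (adjusted p = 0.0588). With landiolol, Fgf9 differed from sham by -1.93 in males (adjusted p = 0.0409) and -1.48 in females (adjusted p = 0.104), and from CLP by -0.29 (adjusted p = 0.828) and 0.17 (adjusted p = 0.965). It was well above background on all 5 male and 4 of 5 female sham arrays and on 2 of 5 CLP arrays of each sex. Like Fgf16, it met the filter through the sham groups alone. With the row on the slide as a term, the female difference of CLP plus landiolol from sham turned to 0.45 (adjusted p = 0.917), and that of CLP from sham was -0.88 (adjusted p = 0.477).

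**Figure D2:**
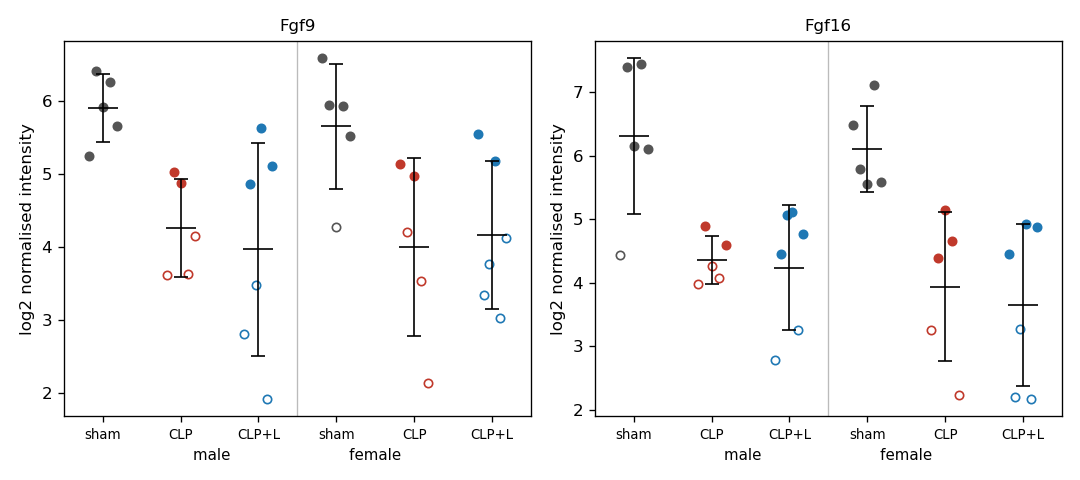
Log2 normalised intensity of Fgf9 and Fgf16 on each of the 32 arrays, by sex and treatment (CLP+L is CLP plus landiolol), with the mean ± SD. Open points, where the probe was not well above background, are found mainly in the septic groups, and male sham replicate 1 of Fgf16 (4.44) lies among the CLP values.

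Markers of other cell types were set beside these ligands. Of the 6 fibroblast markers, 3 were called lower with CLP in males (Col1a1 at -2.11, Lum at -1.89 and Col1a2 at -1.34) and 1 higher (Tcf21 at 1.25), with a list median of -0.87 beside 7.81% of all probes called. In females the list median was -0.58 and 0 were called, with Col1a1 at -1.61 (limma's adjusted p = 0.0239). The summed fibroblast intensity was 60400 to 84500 in male sham and 43000 to 82700 in male CLP, and 43300 to 65500 and 39900 to 79200 in females. The median sums were 69700 and 73600 in males and 47800 and 65700 in females, higher with CLP while the list medians were negative. Bright probes weigh most in such linear sums, so they need not follow the list medians. Of the 5 smooth muscle and pericyte markers, 0 were called in males (median -0.69) and 1, Rgs5, was lower in females, at -0.91 (adjusted p = 0.00588, list median -0.19). They summed to 8410 to 19900 in male sham and 5520 to 8340 in male CLP, and to 6410 to 11400 and 6130 to 11300 in females. Of the 6 endothelial markers, 0 were called with CLP in either sex, beside 7.81% of all probes in males and 3.63% in females.

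The summed intensity of the 4 mesothelial (epicardial) markers was 509 to 834 in male sham and 347 to 867 in male CLP, and 222 to 797 and 273 to 538 in females. Of these, Wt1 alone was tested, and CLP differed from sham by -0.30 (adjusted p = 0.453) in males and -0.26 (adjusted p = 0.739) in females. The 4 atrial markers, of which 3 were tested and none called, summed to 107000 to 188000 and 99500 to 155000 in males and to 135000 to 154000 and 95200 to 157000 in females. For CLP against sham, 7.81% of all probes were called in males and 3.63% in females. The part of the cell types above in the values of Fgf9 and Fgf16, and that of the neutrophil and macrophage markers in the value of Fgf2, was not tested.

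The other ligands were not called in any of the 6 comparisons. Fgf1, the acidic FGF that binds all receptors, had means of 13.37 ± 0.58 (SD, n = 5) in male sham and 13.25 ± 0.47 (SD, n = 5) in male CLP, a difference of -0.12 (SE 0.35). Its second probe differed by 0.09 (SE 0.17) in males, and the first and second gave -0.38 (SE 0.34) and -0.28 (SE 0.17) in females. The widest value of the second Fgf1 probe was 0.41 (SE 0.16, adjusted p = 0.132) for male CLP plus landiolol against sham, where the first gave -0.14 (SE 0.34), so the probes differed in sign. Both probes were well above background on all 32 arrays.

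Fgf13, an intracellular FGF that binds voltage-gated sodium channels rather than FGF receptors, read 10.49 ± 0.56 (SD, n = 5) in male sham and 10.35 ± 0.28 (SD, n = 5) in male CLP. Its differences lay between -0.23 and 0.20 in the 6 comparisons, each with an SE of 0.27 to 0.30. The groups overlapped throughout.

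Fgf21, a circulating FGF that acts through klotho β and is induced by metabolic stress, read 5.81 ± 0.43 (SD, n = 5), 5.57 ± 0.30 (SD, n = 5) and 5.83 ± 0.45 (SD, n = 6) in male sham, CLP and CLP plus landiolol. In females, the sham arrays lay between 5.10 and 5.59 and the CLP plus landiolol arrays between 5.53 and 6.08. The CLP arrays spread more widely, from 3.75 to 6.31. The widest difference was 0.69 (SE 0.34, limma's adjusted p = 0.557) for female CLP plus landiolol against CLP.

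No receptor was called. Fgfr1, the main FGF receptor of the heart, read 12.99 ± 0.35, 12.98 ± 0.32 (SD, n = 5 each) and 13.00 ± 0.36 (SD, n = 6) in male sham, CLP and CLP plus landiolol. CLP differed from sham by -0.01 (SE 0.21) in males and 0.27 (SE 0.20) in females. A second Fgfr1 probe gave 0.08 (SE 0.13) and 0.32 (SE 0.18). The remaining Fgfr1 probe, a dim one, gave -0.25 (SE 0.33) in males and was not tested in females, where 1 of the 16 arrays was well above background.

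Fgfr3, a receptor best known for restraining bone growth, differed by -0.21 (SE 0.25) in males and 0.23 (SE 0.22) in females. Fgfr2, the receptor of epithelia and mesenchyme, differed by -0.35 (SE 0.51) and -0.14 (SE 0.32) with CLP. With landiolol it was 0.87 (SE 0.48, limma's adjusted p = 0.425) above CLP in males and 0.37 (SE 0.30, adjusted p = 0.760) in females. The male CLP arrays read 5.07 ± 0.72 (SD, n = 5) and the male CLP plus landiolol arrays 5.95 ± 1.17 (SD, n = 6), and the groups overlapped. The second Fgfr2 probe was well above background on 0 of the 32 arrays. Over the FGF probes tested (13 in males and 12 in females, some genes with more than 1), the median difference between CLP and sham was -0.13 and -0.17. The medians over all probes tested were 0.009 and -0.015.

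**Figure D3:**
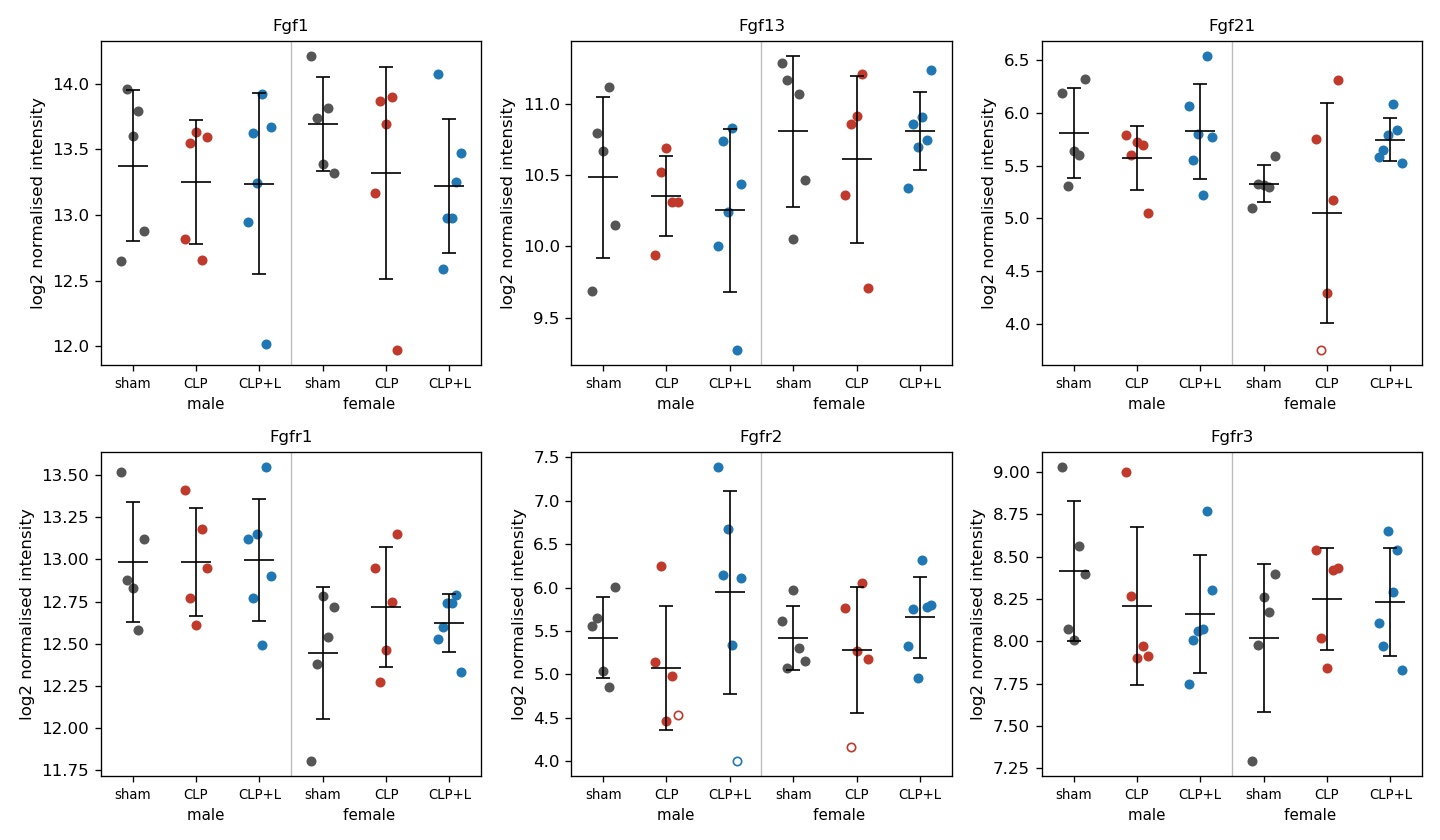
Log2 normalised intensity of Fgf1, Fgf13, Fgf21, Fgfr1, Fgfr2 and Fgfr3 (brightest probe of each) on each of the 32 arrays, by sex and treatment (CLP+L is CLP plus landiolol), with the mean ± SD and open points where the probe was not well above background. The groups of a sex overlap for each gene, and the female CLP arrays of Fgf21 spread from 3.75 to 6.31.

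**Figure D4:**
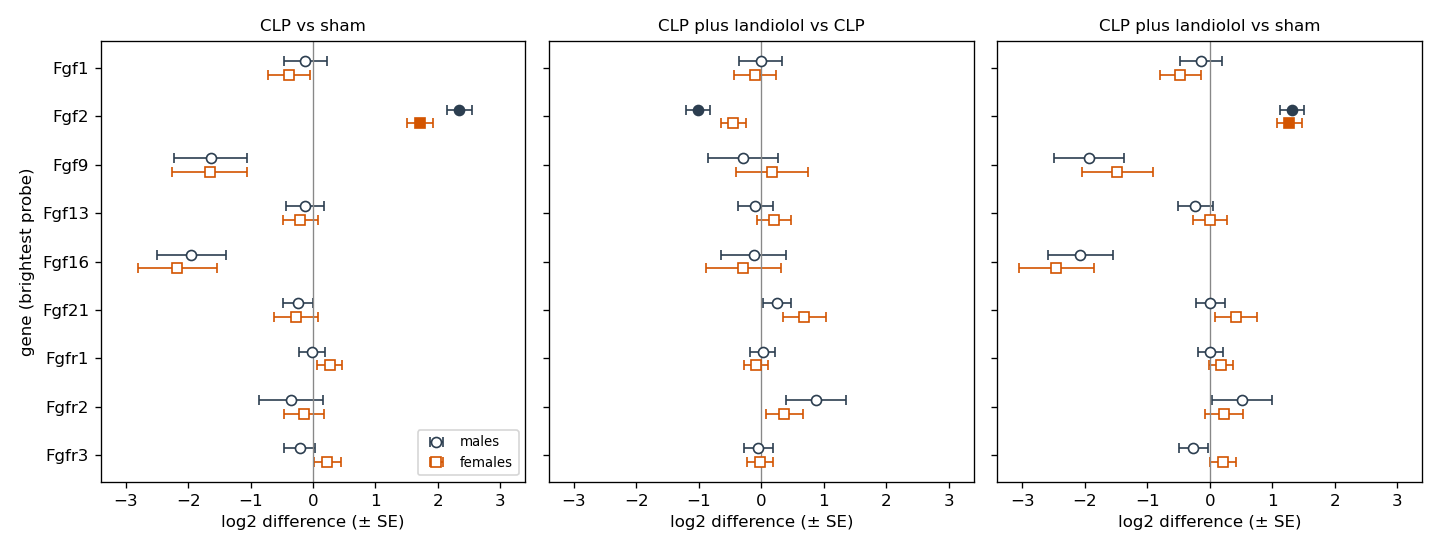
Log2 difference (± SE) of the 9 tested genes, brightest probe, for CLP vs sham, CLP plus landiolol vs CLP and CLP plus landiolol vs sham, in males (circles) and females (squares). Filled symbols passed the FDR of the comparison. Fgf2 alone is filled, at 2.34 and 1.72 for CLP vs sham, and Fgf9 and Fgf16 lie between -1.48 and -2.46 against sham in each sex without passing.

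Genes around the members were read from 4 lists. Of 17 other FGF ligands, 16 had a probe, 5 were tested in each sex and 0 were called in any comparison within a sex. Fgf7, a ligand made by mesenchymal cells, gave 0.96 (SE 0.51, adjusted p = 0.234) for CLP in males and -0.56 (SE 0.50, adjusted p = 0.565) in females. Of 11 co-receptors and binding proteins, 9 were tested and 0 were called. The nearest was Fgfrl1, a receptor without a kinase domain, at 0.40 (SE 0.12, adjusted p = 0.0484) for CLP in females and 0.29 (SE 0.11, adjusted p = 0.0800) in males.

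Of the 17 docking and RAS-ERK genes, 16 were tested and the median difference between CLP and sham was -0.08 in each sex. Judged by the brightest probe, 1 was called in 1 comparison. This was CLP plus landiolol against CLP in males, where 1.56% of all probes were called. Shc1, an adaptor between receptor tyrosine kinases and RAS, read 9.84 ± 0.38 (SD, n = 5), 10.77 ± 0.45 (SD, n = 5) and 9.71 ± 0.45 (SD, n = 6) in male sham, CLP and CLP plus landiolol. With landiolol it fell by 1.06 on the log2 scale (SE 0.25, limma's adjusted p = 0.0436), and its difference between CLP and sham was 0.93 (SE 0.26, adjusted p = 0.0219), over the 1% threshold. In females Shc1 differed by 0.46 (SE 0.85, adjusted p = 0.921) between CLP plus landiolol and CLP.

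The list of feedback inhibitors and ETV factors held 14 genes, of which 12 were tested in males and 11 in females. It included Flrt2, which binds FGF receptors and is neither, and Flrt2 is among the called genes in every count against sham below. With CLP, 3 of the 12 were higher in males and 2 of the 11 in females, and 0 were lower, beside 7.81% and 3.63% of all probes called in either direction. The list's median difference was 0.24 in males and 0.18 in females. Against sham, 3 were higher with CLP plus landiolol in each sex, beside 4.15% and 5.25% of all probes. Between CLP plus landiolol and CLP, 0 were called in either sex, beside 1.56% of all probes in males and 0.0945% in females.

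The genes that rose were Spred3, Flrt2 and Etv5. Spred3, of the Spred family that restrains RAS-ERK signalling, was at 7.25 ± 0.51 in male sham and 9.62 ± 0.27 in male CLP (SD, n = 5 each), a rise of 2.37 (SE 0.29, limma's adjusted p = 8.12e-05). In females it rose by 1.87 (SE 0.30, adjusted p = 0.00105). Flrt2, a leucine-rich membrane protein that binds FGF receptors, rose by 2.08 (SE 0.29, adjusted p = 0.000204) and 1.53 (SE 0.30, adjusted p = 0.00432). Etv5, a transcription factor induced by FGF receptor signalling, rose by 0.88 (SE 0.15, adjusted p = 0.000967) in males and was at 0.56 (SE 0.19, adjusted p = 0.0842) in females.

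With landiolol against sham, the differences were 1.68 and 1.83 for Spred3, 1.36 and 1.69 for Flrt2 and 0.75 and 0.97 for Etv5, in males and females, and all 6 passed the FDR. The row on the slide splits the female arrays of this comparison as the groups do, and with the row as a term 20 of 25394 probes were called in place of 1332. The female values then were 1.36 for Spred3 (adjusted p = 0.361), 1.21 for Flrt2 (adjusted p = 0.454) and 0.82 for Etv5 (adjusted p = 0.450), so that none of the 3 was called. Female CLP against sham also lost both calls with that term, at 1.68 for Spred3 (adjusted p = 0.0109) and 1.33 for Flrt2 (adjusted p = 0.0367), while in males all 6 calls against sham were kept. The comparisons with sham share their sham arrays. The classical feedback genes of the same list did not pass. Spry1, Spry2 and Spry4 gave 0.13, 0.37 and 0.37 for CLP in males and -0.39, 0.36 and -0.18 in females, and Dusp6, a phosphatase of ERK, gave 0.14 (SE 0.23) and 0.18 (SE 0.40). The lists were not refitted under other settings than this term, which was chosen for these 3 genes after the data were seen.

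**Figure D5:**
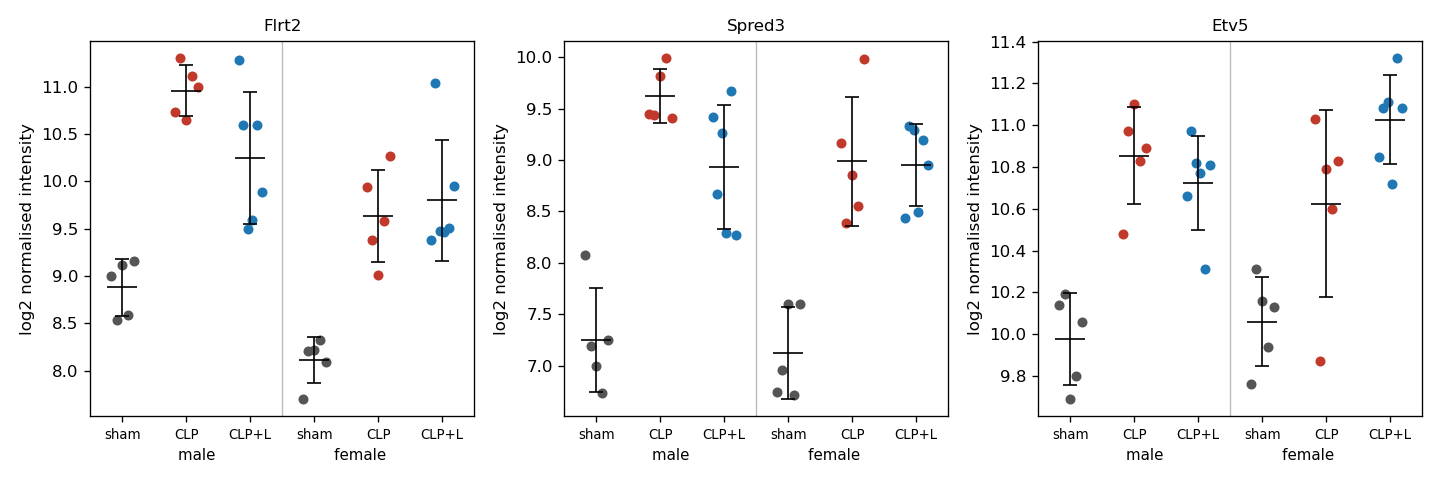
Log2 normalised intensity of Flrt2, Spred3 and Etv5 on each of the 32 arrays, by sex and treatment (CLP+L is CLP plus landiolol), with the mean ± SD. In males every CLP array of each gene lies above every sham array, and Spred3 reads 9.41 to 9.99 in male CLP against 6.73 to 8.08 in male sham.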

How the data were processed

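The authors hybridised 32 left ventricle RNA samples to 1-colour Agilent arrays and deposited the scanner output, whose processed signal is an intensity after background subtraction (Agilent Feature Extraction 10.5, per the labels), and a table of log2 values after their normalisation and filter. Control spots and spots marked as outliers were not used here. Repeated spots of a probe were averaged on the log2 scale, and quantile normalisation was done within a sex. Median raw signals per array ran from 49.2 to 158, and 34920 to 43155 spots were well above background. The number of arrays limits the precision. The groups given by the labels were compared with limma 3.58.1 (lmFit, eBayes; R 4.3.3) on the 16 arrays of a sex, and sex differences as an interaction on 32 arrays normalised together. Replicate numbers only name arrays. A gene was reported by its brightest probe over the 32 arrays. A member counted as called if any of its probes passed, but a gene of the lists or a marker only if its brightest probe passed. All 10 members were named, but their differences were not printed for every comparison. Genes of the lists were named mainly where called or nearest to it, and for a called member the 3 genes nearest in pattern were named. The members and lists were chosen with earlier results of these data known. The test was also run on simulated data with independent noise and no slide or row effects, so that run cannot judge those effects. Female slides were scanned under 2 protocols of the software, and gene names came from the annotation in the files. The study applied SAM, which was run here with 100 drawn permutations as an alternative. Tables were read with the data.table package (version 1.17.8), and figures were drawn with matplotlib 3.10.9.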

Additional observations from a re-analysis of the deposited data

Results flagged for a closer look

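Among the 54 groups of arrays checked (9 genes in 6 groups), 2 held an array whose gap to the nearest other was wide for the range of its group by Dixon's criterion, and chance alone flags about 1 in 20 groups. Fgf2 read 7.51 on male sham replicate 1, the highest of its group, with the next at 7.08. Fgf21 read 5.05 on male CLP replicate 5, the lowest of its group, with the next at 5.60. The difference of neither gene between CLP and sham in males changed its side of the threshold when that array was left out.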

How the results depend on the processing

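Fgf2 was called against sham in both sexes under each alternative except, for female CLP plus landiolol, the row on the slide as a term, where 0 genes were called. In that comparison the row holds the same split of arrays as the groups, so the fit rests on the CLP arrays of both rows. For male CLP plus landiolol against CLP, 0 genes were called at an FDR of 1% or in a fit of those 2 groups alone, and 0 to 1 when arrays were left out (0 without male CLP replicate 3 or 4). For CLP vs sham in males, 2 genes were called with scaling to the 75th percentile or an FDR of 5% (Fgf16 added), 2 with the authors' table or the 2 groups alone (Fgf9 added), 3 with SAM (Fgf9 and Fgf16 added) and 1 to 2 without an array (Fgf16 added without male sham replicate 1). For CLP vs sham in females, 2 were called with SAM or an FDR of 5% (Fgf16 added). For CLP plus landiolol vs sham in males, 2 were called with SAM, 3 at an FDR of 5% (Fgf9 and Fgf16 added) and 1 to 2 without an array (Fgf16 without male sham replicate 1). In females, 2 were called with scaling to the 75th percentile, normexp, SAM or an FDR of 5% and 1 to 2 without an array (Fgf16 without female CLP plus landiolol replicate 4). The interactions and female CLP plus landiolol against CLP stayed at 0 under all of theirs. Without a male sham array other than replicate 1, Fgf16 no longer met the filter in males, and without a female sham array other than replicate 3, Fgf9 no longer met it in females, so each had 6 of 10 such fits for CLP and 7 of 11 for CLP plus landiolol.

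Of 830 refits of single members, 68 turned the sign, none of Fgf2 and none with an adjusted p under 0.696. With scaling to the 75th percentile, Fgfr1 gave 0.02 for male CLP vs sham and -0.02 for landiolol vs CLP, Fgf16 0.04 and, in females, Fgf9 -0.05 for landiolol vs CLP, and Fgf21 -0.02 for male landiolol vs sham. With the row as a term in females, landiolol vs CLP gave 0.29 for Fgf1 and 0.20 for Fgf16, and landiolol vs sham 0.17 for Fgf1, -0.73 for Fgf21, 0.45 for Fgf9, -0.21 for Fgfr1, -0.32 for Fgfr2 and -0.08 for Fgfr3. For the called genes of the feedback list, that term was chosen after the data were seen. With it, Flrt2 gave -0.12 for female landiolol vs CLP, and the probes called for CLP vs sham in females fell from 923 to 337. Without an array, male CLP vs sham ran from -0.31 to 0.02 for Fgf1, -0.33 to 0.03 for Fgf13 and -0.11 to 0.13 for Fgfr1. Male landiolol vs sham ran from -0.32 to 0.11 for Fgf1, -0.13 to 0.14 for Fgf21 and -0.10 to 0.14 for Fgfr1. Male landiolol vs CLP ran from -0.16 to 0.23 for Fgf1, -0.22 to 0.10 for Fgf13, -0.30 to 0.17 for Fgf16, -0.62 to 0.12 for Fgf9, -0.09 to 0.12 for Fgfr1 and -0.17 to 0.15 for Fgfr3. Female CLP vs sham ran from -0.39 to 0.02 for Fgf13, -0.59 to 0.05 for Fgf21 and -0.33 to 0.14 for Fgfr2. Female landiolol vs CLP ran from -0.43 to 0.05 for Fgf1, -0.02 to 0.35 for Fgf13, -0.72 to 0.01 for Fgf16, -0.30 to 0.45 for Fgf9, -0.20 to 0.02 for Fgfr1 and -0.12 to 0.06 for Fgfr3. The cause of these changes was not tested. Signal near background limits Fgf9, Fgf16 and Fgfr4.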

Other observations

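Nudt6, a nudix hydrolase gene whose transcript overlaps that of Fgf2 on the opposite strand, had 2 probes, and neither was called. For CLP against sham they gave 0.25 (limma's adjusted p = 0.332) and 0.21 (adjusted p = 0.452) in males and 0.44 (adjusted p = 0.289) and 0.38 (adjusted p = 0.395) in females. For CLP plus landiolol against CLP in males they gave 0.41 (adjusted p = 0.214) and 0.27 (adjusted p = 0.441), while the brighter Fgf2 probe gave -1.02. Against sham, CLP plus landiolol gave 0.66 (adjusted p = 0.0118) and 0.49 (adjusted p = 0.0645) in males, over the 1% threshold. In females these were 0.54 (adjusted p = 0.135) and 0.50 (adjusted p = 0.184).

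Hras, a RAS gene of the relay list, was not called with its brighter probe, at -0.25 (limma's adjusted p = 0.552) for CLP against sham in males. Its dimmer probe gave -0.80 (adjusted p = 0.00443) there and -0.83 (adjusted p = 0.00396) for CLP plus landiolol against sham in males. In females it gave -0.79 (adjusted p = 0.00794) for CLP and -0.53 (adjusted p = 0.0432) for CLP plus landiolol against sham, where the brighter probe gave -0.11 (adjusted p = 0.837) and 0.00 (adjusted p = 0.999), so the call of this gene depends on the probe.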
